A study of Mus musculus with 6 samples.

Results

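The BCL-2 family decides whether a cell keeps its mitochondria intact or dies by the mitochondrial route, and 10 of its genes were examined here in stimulated CD8 T cells. They were chosen by symbol from the deposited table: the anti-apoptotic genes Bcl2, Bcl2l1 and Mcl1, the effectors Bax and Bak1, and the BH3-only genes Bcl2l11, Bad, Bid, Bbc3 and Pmaip1. All 10 were found among the 49492 rows of the table, and all 10 passed the filter on low counts that left 15186 genes to test. The cells were naive CD8 T cells of the spleen, taken from OT-I mice of 6 to 8 weeks on a C57/BL6 strain background. OT-I mice carry a transgenic T cell receptor that recognises an ovalbumin peptide, and both groups had it. The cells were kept for 24 hours on plates coated with anti-CD3 at 1 µg/ml, while anti-CD28 was in solution at 1 µg/ml, so no unstimulated level is given. The 3 libraries labelled WT, replicates 1 to 3, are of wild type OT-I mice. The 3 labelled KO, replicates 4 to 6, are of NIK-CD4Cre-OT-I mice. NIK, the product of Map3k14, is the kinase at the head of noncanonical NF-kB signalling. CD4Cre is switched on while T cells develop in the thymus, before CD8 cells have lost CD4, so it acts in the CD8 lineage too. Whether each library stands for a separate mouse is not in the labels. Both sexes occurred in each group, so each held at least 2 mice, and the spread behind the p-values may be technical in part. Values per library are given in the order of the replicate numbers throughout.

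Anti-apoptotic BCL-2 proteins sit in the outer mitochondrial membrane and hold the effectors BAX and BAK in check. BH3-only proteins are sensors of stress and of lost growth signals, which either occupy the anti-apoptotic proteins or activate the effectors directly. Once active, BAX and BAK open the outer membrane and release cytochrome c, which starts the caspase cascade. In T cells, BCL-2 and MCL-1 support naive survival, BCL-xL (from Bcl2l1) is made on activation, and BIM (from Bcl2l11) removes activated cells as a response ends. The comparison asks how transcripts of these proteins stood in stimulated CD8 T cells whose T cell lineage was to lack NIK.

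Total counts ran from 41311346 to 47851445 per library, so a count of 3 corresponded to 0.0627 to 0.0722 CPM. CPM, the usual unit of counts relative to the library total, were taken here after adjusting those totals by TMM factors, and this limit covers counting error only. Map3k14 itself was counted 2406, 2992 and 3025 times in the WT libraries and 2425, 2837 and 2271 times in the KO libraries, so its level did not tell the groups apart. A floxed allele may lose a few exons and keep the rest, and a gene-level count is then a partial check, so directions here are between libraries as labelled. All 8 CD8 T cell markers were detected, summing to 2142 to 2331 CPM in the libraries labelled WT and 2256 to 2371 CPM in those labelled KO. Cd4 lay under 1 CPM in every library. Other CD4 T cell markers lay above it: Zbtb7b at 5.44 to 16.3 CPM, Foxp3 at 1.90 to 11.5 CPM and Cd40lg at 1.23 to 3.02 CPM. The B cell markers summed to 26.4 to 84.8 CPM over the libraries, so transcripts of other lymphocytes were present at low levels. Each group held both sexes, with WT replicates 1 and 3 and KO replicate 6 female by Xist.

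Start regions of some members are shown first, because transcription factors of the FOXO and NF-kB families are known regulators of several of these genes. RefSeq windows (GRCm38.p6) of 300 bases, from 250 before to 50 after a start site, were found for 9 of the 10 members, 15 windows in all. The FOXO core letters GTAAACA, searched on both strands, occurred in 2 of the 15 windows, 1 of Bcl2l11 and 1 of Bbc3, against 3.65% of all 32851 windows. Both are BH3-only genes known as FOXO3 targets in other cells. The 10-letter kappa B consensus, also searched on both strands, occurred in 1 window of Bbc3 and 1 of Bcl2l1, against 8.46% of all windows. In Bbc3 it matched at neighbouring, overlapping positions. The windows with a match follow, each 5′ to 3′ along the gene's strand, with the matched letters in capitals.
Bcl2l11, FOXO letters, chr2:128125788-128126087, plus strand: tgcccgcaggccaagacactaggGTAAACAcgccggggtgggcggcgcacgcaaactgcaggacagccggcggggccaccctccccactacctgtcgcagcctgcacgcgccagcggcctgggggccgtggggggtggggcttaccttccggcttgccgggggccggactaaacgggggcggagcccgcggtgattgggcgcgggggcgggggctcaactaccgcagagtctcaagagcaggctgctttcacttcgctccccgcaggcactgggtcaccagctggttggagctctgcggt
Bbc3, FOXO letters, chr7:16310011-16310310, plus strand: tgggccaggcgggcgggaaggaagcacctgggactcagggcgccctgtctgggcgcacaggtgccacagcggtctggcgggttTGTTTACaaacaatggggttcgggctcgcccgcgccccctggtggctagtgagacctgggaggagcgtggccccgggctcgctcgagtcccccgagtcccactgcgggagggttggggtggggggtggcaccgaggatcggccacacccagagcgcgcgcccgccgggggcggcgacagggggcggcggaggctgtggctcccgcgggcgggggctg
Bbc3, kappa B consensus, chr7:16309333-16309632, plus strand: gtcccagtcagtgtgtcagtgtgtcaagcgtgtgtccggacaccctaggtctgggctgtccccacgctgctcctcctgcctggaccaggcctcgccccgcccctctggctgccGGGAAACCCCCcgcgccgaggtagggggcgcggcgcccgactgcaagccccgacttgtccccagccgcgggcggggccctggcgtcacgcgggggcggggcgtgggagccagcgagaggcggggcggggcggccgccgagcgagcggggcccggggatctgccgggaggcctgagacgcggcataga
Bcl2l1, kappa B consensus, chr2:152830668-152830967, minus strand: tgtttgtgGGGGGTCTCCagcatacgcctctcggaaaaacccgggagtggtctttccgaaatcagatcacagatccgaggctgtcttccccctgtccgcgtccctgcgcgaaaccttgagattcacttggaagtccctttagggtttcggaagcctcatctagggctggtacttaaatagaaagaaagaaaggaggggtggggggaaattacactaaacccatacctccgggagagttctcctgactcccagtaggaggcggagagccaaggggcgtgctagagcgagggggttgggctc
These are matches of letters and not measured binding, and Bcl2l11 (2 windows), Bcl2l1 and Bbc3 (3 windows each) have further start sites whose use the counts cannot separate.

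None of the 10 members was called between the genotypes. A call was an adjusted p under 0.05 in edgeR's quasi-likelihood test over all genes, which 0.00659% of tested genes (1 of 15186) reached. At an unadjusted p under 0.05 the count was also 0 of 10 (7.26% of all tested genes), and DESeq2 called 0 of 10 (0.657% of its 14608 genes). Groups that did not overlap were found for 0 of 10 members and for 12.8% of all tested genes. With only 10 members, this does not set them apart from other genes. Estimates were positive for 5 members and negative for 5, with a median log2 fold (KO over WT) of -0.01, against 0.01 over all tested genes. Adjusted p-values of the members lay between 0.696 and 0.992 in edgeR. The members differed in how much they varied between libraries: Bbc3, Bcl2, Pmaip1 and Bcl2l1 spanned 1.09, 0.66, 0.55 and 0.54 log2 units from the lowest to the highest library, and Bak1 and Bid 0.17 each.

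**Figure D1:**
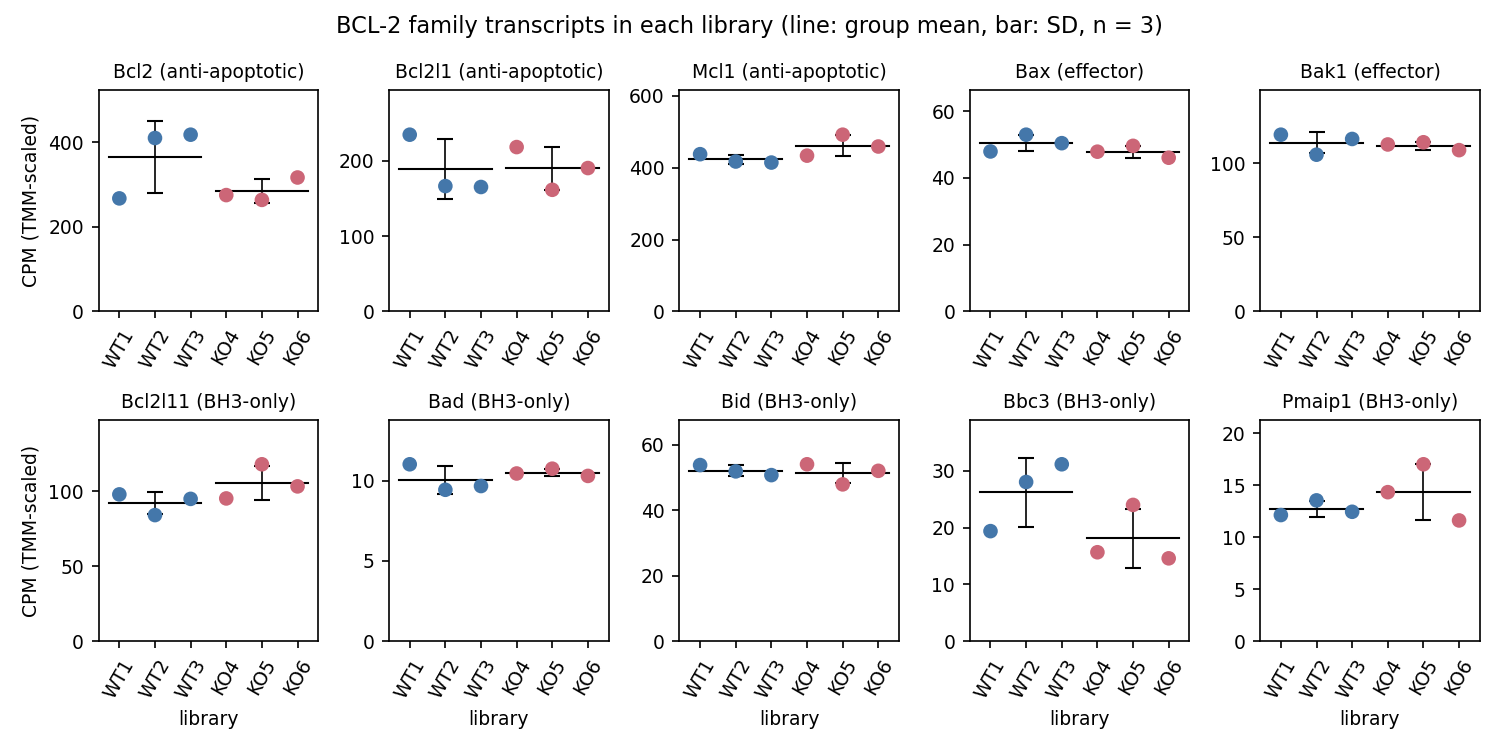
CPM (vertical axis, from 0) of each of the 10 members in each library (horizontal axis), with WT-labelled libraries in blue, KO-labelled in red, lines at group means and bars of 1 SD (n = 3). WT replicate 1 sits with the KO libraries for Bcl2, at 267.0 CPM, while Bak1, Bid and Bad are nearly level across all 6 libraries.

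Among the anti-apoptotic members, Bcl2 had the lower mean in the libraries labelled KO, without passing the test. Bcl2 (chromosome 1, 106538178 to 106714274, minus strand, GRCm38) encodes the founding survival protein of the family. It measured 267.0, 409.6 and 417.4 CPM in the WT libraries and 274.8, 263.5 and 316.4 CPM in the KO libraries. WT replicates 2 and 3 were higher than every KO library, and WT replicate 1 lay among the KO libraries. The means were 364.7 CPM ± 84.7 and 284.9 CPM ± 27.8 (SD, n = 3 each, WT then KO), a log2 fold of -0.36 (SE 0.17; edgeR adjusted p = 0.697; DESeq2 adjusted p = 0.510). The fold had a 95% interval of 0.591 to 1.03. Without WT replicate 1 edgeR called Bcl2 lower, at a log2 fold of -0.54 (adjusted p = 0.046), in a fit that called 119 of 15584 genes. The adjusted p without each of the other libraries ranged from 0.665 to 0.995. The span of Bcl2 is overlapped by D630008O14Rik on the other strand and by Mir3473f and Gm37053 on the same strand. Their effect on the Bcl2 counts was not tested.

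Transcripts of other lymphocytes varied beside Bcl2 in these libraries. The 6 B cell markers summed to 26.4, 84.8 and 53.7 CPM in the WT libraries and to 31.9, 33.6 and 44.4 CPM in the KO libraries. For both measures WT replicates 2 and 3 were the highest libraries and KO replicate 6 came next. All 6 B cell markers were detected. The 8 myeloid markers summed to 6.65 to 10.6 CPM in the libraries labelled WT and 8.93 to 17.4 CPM in those labelled KO. Their part in the Bcl2 values was not tested. In bulk RNA, fewer cells of a type and less RNA per cell cannot be told apart.

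Bcl2l1 differed more between libraries of one genotype than between genotypes. The gene (chromosome 2, 152780668 to 152831728, minus strand) encodes BCL-xL and, by alternative splicing, a short death-promoting form that a gene count cannot separate. It measured 235.0, 166.6 and 165.4 CPM in the WT libraries and 218.5, 161.7 and 190.6 CPM in the KO libraries. WT replicate 1 and KO replicate 4 were the highest, and the lowest 3 libraries came from both genotypes. The log2 fold was 0.01 (SE 0.16; edgeR adjusted p = 0.992), with a 95% interval of the fold from 0.771 to 1.32, and the sign of the estimate turned negative without WT replicate 2, WT replicate 3 or KO replicate 4.

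Mcl1 was the steadiest of the anti-apoptotic members. It encodes a short-lived survival protein (chromosome 3, 95658788 to 95663176, plus strand) and had 437.8, 417.4 and 414.5 CPM in the WT libraries, against 433.7, 492.1 and 459.2 CPM in the KO libraries. KO replicates 5 and 6 were the highest libraries, and KO replicate 4 lay under WT replicate 1. The log2 fold was 0.13 (SE 0.06; edgeR adjusted p = 0.697; DESeq2 adjusted p = 0.832), with a 95% interval of the fold of 0.989 to 1.20, and it was 0.08 without KO replicate 5.

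The effectors were close to level. Bax (chromosome 7, 45461697 to 45466898, minus strand) measured 47.9, 52.9 and 50.4 CPM in the WT libraries and 47.8, 49.6 and 46.0 CPM in the KO libraries. Bak1 (chromosome 17, 27019810 to 27029009, minus strand) was at 119.1, 105.6 and 116.2 CPM, and at 112.5, 114.0 and 108.7 CPM, in the same order. For Bak1 every library labelled KO lay within the range of the WT libraries. The log2 folds were -0.08 for Bax (interval of the fold 0.865 to 1.04) and -0.02 for Bak1 (0.897 to 1.08), with edgeR adjusted p-values of 0.770 and 0.928. Ggnbp1 overlaps Bak1 on the other strand, and without a stated strand setting their reads cannot be told apart. Gm45808 overlaps Bax on the same strand, where a strand setting would not separate the reads.

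Among BH3-only members the estimates went in both directions. Bbc3 (chromosome 7, 16308393 to 16318205, plus strand) encodes PUMA, a BH3-only protein induced by p53 and FOXO3 that binds all anti-apoptotic members. It measured 19.4, 28.0 and 31.2 CPM in the WT libraries and 15.7, 24.0 and 14.6 CPM in the KO libraries. KO replicates 4 and 6 were the lowest libraries, but KO replicate 5 exceeded WT replicate 1. The means were 26.2 CPM ± 6.11 and 18.1 CPM ± 5.16 (SD, n = 3 each, WT then KO). Its log2 fold of -0.54 (SE 0.24; edgeR adjusted p = 0.696; DESeq2 adjusted p = 0.390) was the largest of any member, with an interval of the fold of 0.468 to 1.02. Leaving out 1 library gave -0.79 (without KO replicate 5) to -0.39 (without WT replicate 3). The 4 CD4 T cell markers summed to 13.4, 23.5 and 27.3 CPM, and to 11.2, 16.9 and 12.5 CPM, in the same order of libraries. Like Bbc3, this sum was highest in WT replicates 3 and 2, but the markers did not move together. Zbtb7b was highest in WT replicates 2 and 3 (16.3 and 14.2 CPM), and Foxp3 in WT replicate 3 (11.5 CPM). Cd4 and Cd40lg were instead lowest in WT replicate 3 (0.37 and 1.23 CPM). The part of CD4 T cells in the Bbc3 values was not tested.

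Bcl2l11, the other member with the FOXO letters in a start region, had a positive estimate. It encodes BIM (chromosome 2, 128126038 to 128162547, plus strand) and measured 97.8, 84.0 and 94.8 CPM in the WT libraries and 95.1, 117.9 and 103.2 CPM in the KO libraries. KO replicates 5 and 6 were highest, as for Mcl1, and WT replicate 2 was lowest. The means were 92.2 CPM ± 7.26 and 105.4 CPM ± 11.6 (SD, n = 3 each, WT then KO), a log2 fold of 0.19 (SE 0.09; edgeR adjusted p = 0.697; DESeq2 adjusted p = 0.787). The interval of the fold was 0.984 to 1.33. With 1 library left out, the log2 fold ran from 0.10 (without KO replicate 5) to 0.26 (without KO replicate 4).

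The other BH3-only members were Pmaip1, which encodes the MCL-1 antagonist NOXA, Bid, cleaved by caspase-8 downstream of death receptors, and Bad, inactivated by growth factor kinases. Pmaip1 measured 12.1, 13.5 and 12.4 CPM in the WT libraries and 14.3, 17.0 and 11.6 CPM in the KO libraries, so the KO libraries held both its highest and its lowest value (log2 fold 0.17, edgeR adjusted p = 0.781). That estimate was 0.03 without KO replicate 5, 0.30 without KO replicate 6 and 0.07 with sex as a term. Bid ranged from 47.9 to 54.1 CPM and Bad from 9.44 to 11.0 CPM over the 6 libraries. Their log2 folds were -0.02 and 0.06 (edgeR adjusted p = 0.938 and 0.877), and the intervals of the fold were 0.894 to 1.08 for Bid and 0.904 to 1.21 for Bad. Bid overlaps Bcl2l13, and Bad overlaps Gpr137, on the other strand, with the same limit on reads as for Bak1. Bid also overlaps Gm17812 on the other strand and Gm44260 on the same strand.

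**Figure D2:**
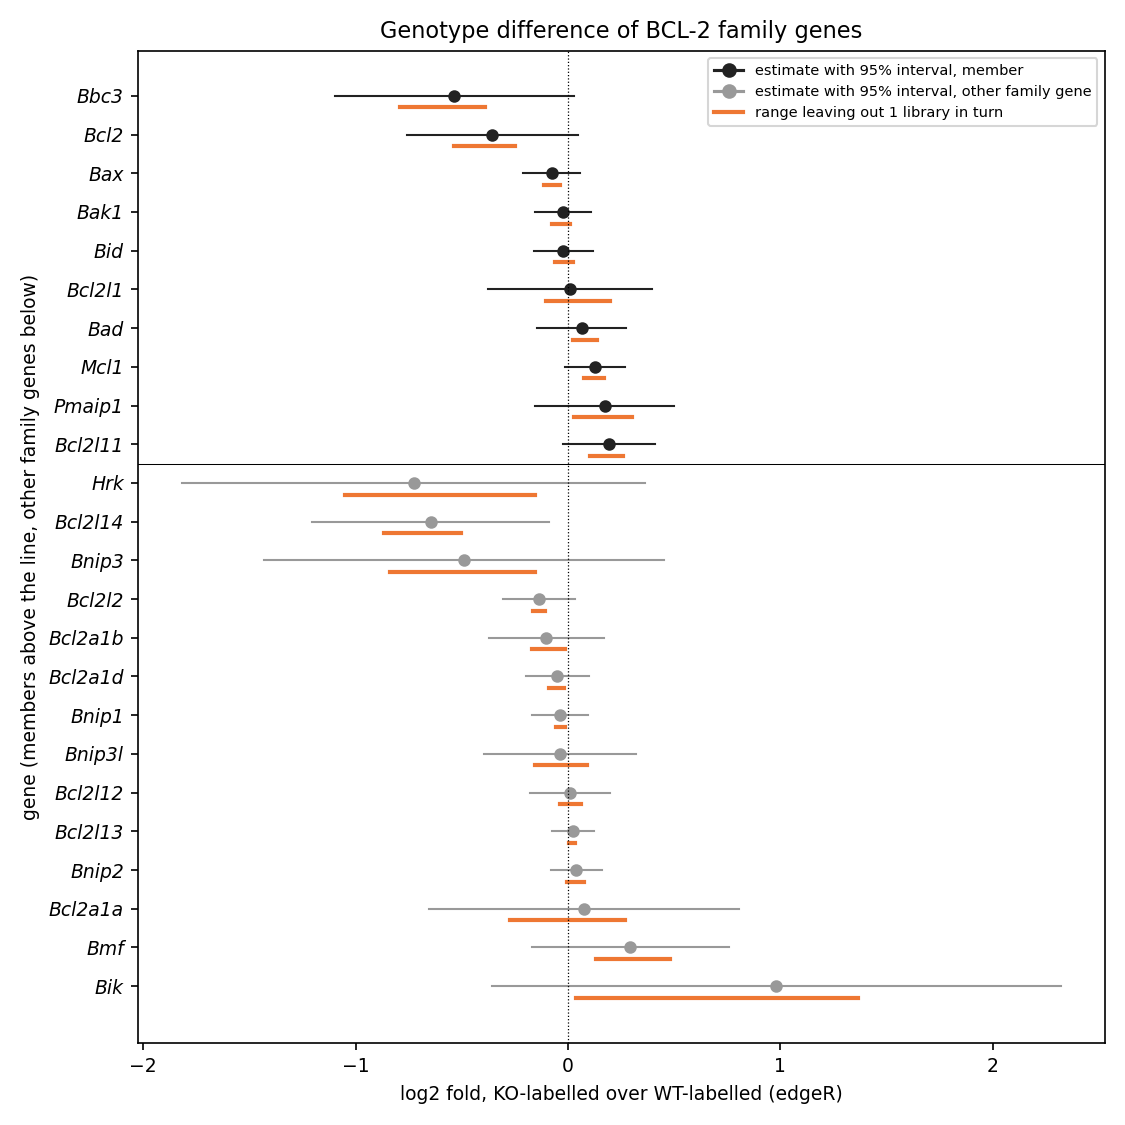
Log2 fold of KO-labelled over WT-labelled libraries (horizontal axis) for the 10 members and the 14 other BCL-2 family genes tested (vertical axis), with points for edgeR estimates, thin bars for 95% intervals and orange bars for the range when 1 library was left out in turn. The intervals of all 10 members include 0, and that of Bbc3 lies mostly below it.

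Levels of different members can be compared only per length, here as CPM per kb of exon (union of the exons in GENCODE M21, which overstates the length of genes with long alternative exons). Mcl1 was the most abundant member on this scale in every library, at 121.3 to 144.0 CPM per kb, and its range did not overlap that of any other. Bak1 (43.9 to 49.5), Bcl2l1 (35.3 to 51.2), Bcl2 (28.8 to 45.6) and Bax (29.2 to 33.6) followed, and each of these neighbours in the order overlapped with the next. A lower tier held Bid (13.5 to 15.2), Bcl2l11 (10.5 to 14.7) and Bbc3 (6.87 to 14.7), which also overlapped. Pmaip1 (4.25 to 6.22) and Bad (3.69 to 4.31) were the least abundant, with Pmaip1 above Bad within each of the 6 libraries. By these union lengths the effectors and the survival genes stood above all BH3-only members in each library. The order depends on the lengths used. In CPM, Bcl2l11 (84.0 to 117.9) stood above Bax (46.0 to 52.9), and Bid (47.9 to 54.1) overlapped with Bax.

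**Figure D3:**
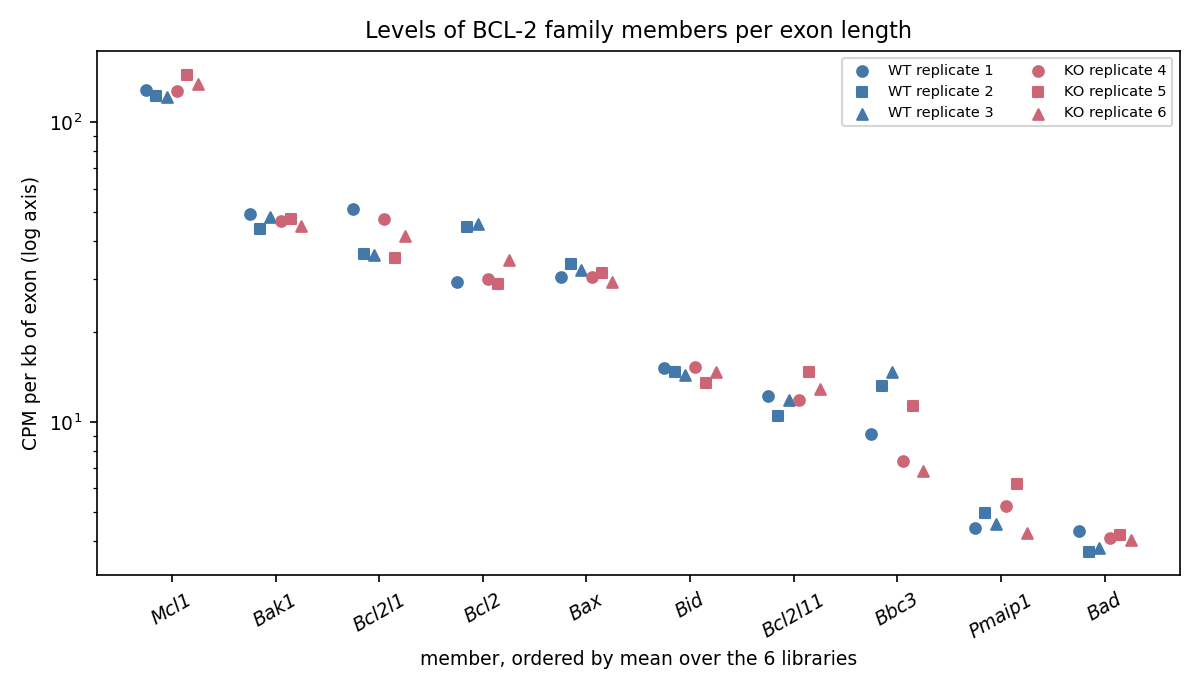
CPM per kb of exon (vertical log axis) of the 10 members (horizontal axis, ordered by the mean over libraries), with blue for WT-labelled and red for KO-labelled libraries and 1 symbol per replicate. Mcl1 stands alone at the top, and Bcl2 and Bcl2l1 change places between libraries.

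The balance of Bcl2 and Bcl2l1, a pair chosen after the values were seen, separated some libraries of one genotype. Counts of Bcl2 per count of Bcl2l1 were 1.14, 2.46 and 2.52 in the WT libraries, and 1.26, 1.63 and 1.66 in the KO libraries. WT replicates 2 and 3 stood above all KO libraries, and WT replicate 1 stood below them. Such ratios within a library do not depend on scaling between libraries, and they are given without a test. The ratio of Bcl2 to Bcl2l11, a survival protein and the BH3-only protein that counters it in T cells, was 2.73, 4.87 and 4.40 in the WT libraries, and 2.89, 2.23 and 3.07 in the KO libraries. Its group means were 4.00 ± 1.13 and 2.73 ± 0.438 (SD, n = 3 each, WT then KO), a difference of -0.52 in the mean log2 ratio that was -0.78 without WT replicate 1 and -0.36 when WT replicate 2 was left out instead. For Bcl2 to Bax the means were 7.20 ± 1.43 and 5.98 ± 0.805 (SD, n = 3 each). They differed by less than the SD of the WT libraries but by more than that of the KO libraries. Mcl1 to Pmaip1 (33.4 ± 2.64 and 32.9 ± 5.80) and Bcl2l1 to Bad (18.7 ± 2.28 and 18.2 ± 2.95) differed by less than 1 SD (n = 3 each). The groups overlapped for all 5 ratios.

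**Figure D4:**
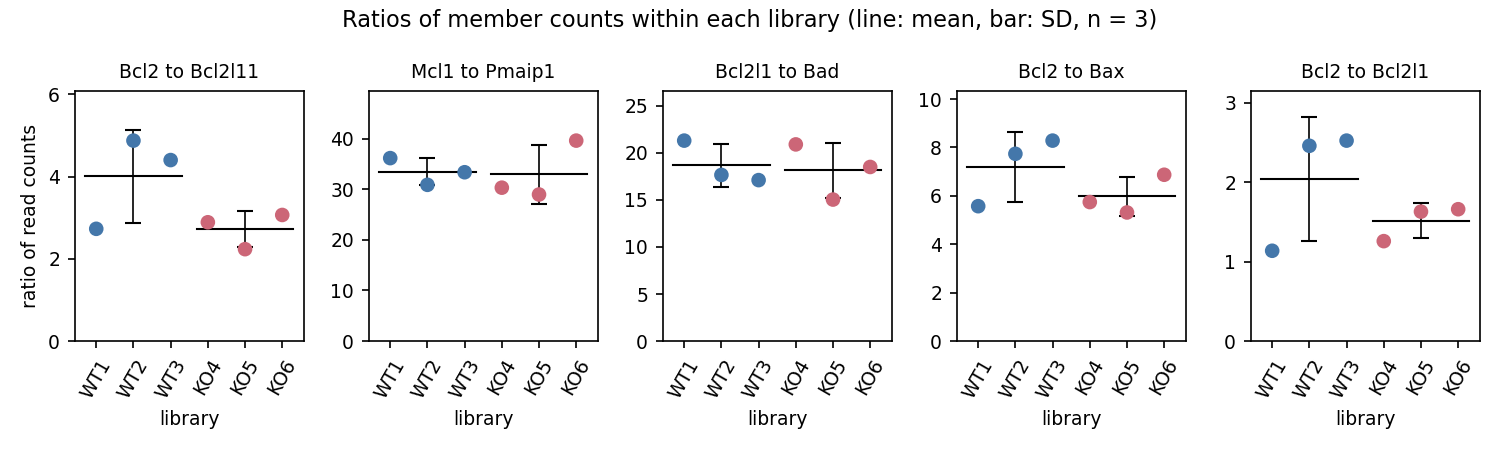
Ratio of read counts (vertical axis, from 0) for 5 pairs of members in each library (horizontal axis), with lines at group means and bars of 1 SD (n = 3). WT replicates 2 and 3 are the highest libraries in the 3 ratios with Bcl2 as numerator, and WT replicate 1 lies with or below the KO-labelled libraries.

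A further 18 genes of the family were listed, of which 14 were tested and 0 called by edgeR or by DESeq2. Before adjustment, 1 of the 14 had a p under 0.05 in edgeR, lower, against 7.26% of all tested genes. The median log2 fold of the 14 was -0.04. The gene under 0.05 was Bcl2l14, a distant relative of the family, with 7.13, 12.6 and 12.0 CPM in the WT libraries and 5.69, 6.50 and 8.09 CPM in the KO libraries. As for Bcl2, WT replicates 2 and 3 were higher than every other library (log2 fold -0.65, SE 0.24; edgeR adjusted p = 0.649; DESeq2 adjusted p = 0.232). Among survival relatives, Bcl2a1d, an isoform of the NF-kB target A1, was at 28.0 CPM ± 1.35 and 27.1 CPM ± 0.988 (SD, n = 3 each), with a log2 fold of -0.05 (edgeR adjusted p = 0.862). Bcl2a1b and Bcl2a1a had log2 folds of -0.10 and 0.07, but the A1 copies are nearly identical, so the split of reads between them is uncertain. Bcl2l2, which encodes BCL-w, stood lower in each KO library, at 12.3 to 13.2 CPM, than in any WT library, at 13.5 to 14.4 CPM, and was not called (log2 fold -0.13; edgeR adjusted p = 0.707). Of the 14 genes, 1 (Bcl2l2) had groups that did not overlap, against 12.8% of all tested genes.

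The other BH3-only genes were scarce. Bmf, a sensor held at the cytoskeleton, had a log2 fold of 0.29, Bik one of 0.98 and Hrk one of -0.73 (edgeR adjusted p from 0.712 to 0.749). Bik had 130 counts in KO replicate 4 and 24 to 38 in the other 5 libraries, so its estimate rests on 1 library and was 0.04 without it. That of Hrk was -0.15 without WT replicate 2. That of Bmf ranged from 0.13 without WT replicate 1 to 0.48 without WT replicate 3, with 0.18 without KO replicate 6. The mitophagy receptors Bnip3 and Bnip3l had log2 folds of -0.49 and -0.04. For Bnip3 it was -0.16 without WT replicate 2 and -0.28 without KO replicate 4, but -0.80 without WT replicate 1 and -0.84 without KO replicate 6. Of the other relatives, Bcl2l12, Bcl2l13, Bnip1 and Bnip2 had log2 folds between -0.04 and 0.04. The effector Bok, Bcl2a1c, Bcl2l10 and Bcl2l15 did not pass the filter on low counts, and Bcl2l10 had no count in any library, which allows up to 0.0722 CPM in the shallowest.

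Downstream of the family, 18 genes of the mitochondrial death pathway were tested and both edgeR and DESeq2 called 0. Before adjustment, 2 of the 18 had a p under 0.05 in edgeR, both higher, against 7.26% of all tested genes. The median log2 fold of the 18 was 0.05. Birc2, which encodes the ubiquitin ligase cIAP1 that also restrains NIK, was at 68.2 CPM ± 3.53 and 82.0 CPM ± 11.0 (SD, n = 3 each; log2 fold 0.27, edgeR adjusted p = 0.662). For Birc2, KO replicate 4 (69.3 CPM) lay within the range of the WT libraries (65.2 to 72.1 CPM). KO replicates 5 and 6 lay above it, at 88.3 and 88.5 CPM. Apaf1, the scaffold of the apoptosome, and Birc6, a large inhibitor of apoptosis, had log2 folds of 0.12 and 0.09 (edgeR adjusted p = 0.702 and 0.708).

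Upstream, 18 regulators of the family were tested and edgeR and DESeq2 called 0. Before adjustment, 3 of the 18 had a p under 0.05 in edgeR (1 higher and 2 lower), against 7.26% of all tested genes. The median log2 fold of the 18 was -0.05. Nfkb1, the precursor of NF-kB p50, was at 1017 CPM ± 51.7 and 884.9 CPM ± 23.7 (SD, n = 3 each; log2 fold -0.20, edgeR adjusted p = 0.597). Pim1, a kinase that phosphorylates BAD, was at 561.3 CPM ± 45.0 and 483.4 CPM ± 3.76 (SD, n = 3 each; log2 fold -0.22, edgeR adjusted p = 0.600). Usp9x, a deubiquitinase that stabilises MCL-1, was at 264.0 CPM ± 8.79 and 290.9 CPM ± 10.6 (SD, n = 3 each; log2 fold 0.14, edgeR adjusted p = 0.630). The groups did not overlap for 4 of the 18 regulators, against 12.8% of all tested genes: these 3, which were picked by their small p, and Dynll1, a docking protein for BIM and BMF, singled out with its values known (log2 fold -0.08, edgeR adjusted p = 0.708). For Ddit3, the stress factor CHOP, the log2 fold was -0.49 (edgeR adjusted p = 0.693). It ranged from -0.69 without WT replicate 1 to -0.32 without WT replicate 2. Foxo3 and Trp53, known activators of Bbc3, had log2 folds of -0.06 and -0.004 (edgeR adjusted p = 0.842 and 0.989).

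Outside these lists, the tested genes most like a member over the 6 libraries, by Pearson's r of log2 CPM, were Dusp22 and Gm1840 for Bcl2 (r = 0.996 and 0.995), Gatsl2 and Ccl25 for Mcl1 (r = 0.998 and 0.997), and Xlr4b and Nt5c2 for Bcl2l11 (r = 0.993 and 0.986). Of 15100 candidates, 392 had r over 0.9 with Bcl2, 268 with Mcl1 and 188 with Bcl2l11, so the ranking is a description of these libraries only.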

How the data were processed

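RNA from 6 samples of stimulated splenic CD8 T cells was sequenced as 3 libraries labelled WT and 3 labelled KO, grouped by their titles. Total RNA was isolated with Trizol and libraries were made with Illumina protocols, per the labels' protocols. The deposited table holds raw counts of reads for each gene symbol. The submitters' processing notes list HTSeq 0.9.1, DESeq2 and the build mm10, without saying what each was used for. The aligner, the annotation and the strand setting were not given in the sources used here. Table columns were matched to libraries by name, and 0 were left unused. No pair of libraries agreed within sampling noise (mean chi-square 21.2 to 58.0 per gene, among genes whose counts in the pair reached 200). The closest pairs were WT replicates 2 and 3 (21.2) and WT replicate 1 with KO replicate 4 (21.2). The most distant pair was WT replicates 1 and 2 (58.0). WT replicates 1 and 3 were at 33.1, and pairs of KO replicates at 31.6 to 37.4. Abundant genes can weigh most in such a mean, so it does not show how many genes set a pair apart.

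The counts were fitted by the quasi-likelihood test of edgeR 4.0.16 (R 4.3.3; filterByExpr, TMM scaling, then glmQLFit with robust estimation) with genotype as the single term, and p-values were adjusted by Benjamini-Hochberg over 15186 genes. Log2 folds are KO over WT, their SE follows from the F statistic, and intervals are at the 95% level. Likeness used log2 CPM with 0.5 added to each count. Coordinates and exon lengths are from GENCODE M21 on GRCm38, the mm10 assembly, by symbol. Also tried were DESeq2 1.42.0, limma-voom (limma 3.58.1), RLE or upper-quartile scaling, no filter or one of at least 1 CPM in 3 libraries, sex as a term, and each library left out. The Bcl2 to Bcl2l1 ratio was added after seeing the data. The procedure was tested on simulated data, where a pass was judged only on the genes given the largest simulated fold. That fold was far larger than any member's estimate, so the simulation does not show whether differences of the members' size would be called. Genes named are all members, the tested family genes, the 4 genes with the smallest p on each of the other lists and the 2 most alike for Bcl2, Mcl1 and Bcl2l11, except 1 pathway gene that is not reported here. Foxo3, Trp53 and Dynll1 fall outside this rule, named with their values known. Members and lists were chosen with earlier results of these data known.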

Additional observations from a re-analysis of the deposited data

How the results depend on the processing

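No member was called with RLE or upper-quartile factors, no filter, the filter at 1 CPM, DESeq2, limma-voom or sex as a term, and their estimates kept their sign in all of these. Over all genes, 10 were called without a low-count filter and 96 by DESeq2 (64 higher and 32 lower), against 1. Leaving out 1 library gave from 1 to 119 calls over all genes (119 without WT replicate 1, 52 higher and 67 lower, and 2 without WT replicate 2), from 0 to 1 among members (Bcl2) and from 0 to 1 among other pathway genes, with both calls made without WT replicate 1. Estimates close to 0 changed sign when 1 library was left out: the log2 fold ranged from -0.10 to 0.20 for Bcl2l1, -0.074 to 0.011 for Bak1, -0.061 to 0.025 for Bid, -0.037 to 0.062 for Bcl2l12, -0.16 to 0.089 for Bnip3l, -0.27 to 0.27 for Bcl2a1a and -0.0038 to 0.073 for Bnip2. With sex as a term that of Bcl2l12 was -0.00080. The causes were not tested. Genes near 1 CPM (Bik, Hrk, Bcl2a1a) have wide intervals. No paired analysis was possible because the WT and KO libraries have no replicate number in common.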
